A study of Mus musculus with 3 samples.

Results

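The 10 genes described here are identity genes of Kupffer cells, the resident macrophages of the liver, and regulators of that identity. They are Clec4f, Vsig4, Timd4, Cd5l, Marco, Cd163, Spic, Nr1h3, Csf1r and Folr2, chosen by name as a list of resident macrophage genes from the 55421 genes of the tables. Their UMIs (unique molecular identifiers, 1 per captured RNA molecule) were read in cells called Kupffer-like, monocyte-like and dendritic-like from markers that left all 10 out. The libraries are droplet 3' RNA profiles of single liver cells from 3 wild-type mice, and each group was a single animal.

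All mice ate an iron-deficient diet (IDD, 2 to 6 ppm iron) for 1 week. The IDD+HTF mouse then received 10 mg of holo-transferrin, the iron-loaded plasma iron carrier, into a vein. The IDD+HID mouse was moved to a high-iron diet with 2% carbonyl iron for 18 h, and the IDD mouse received neither. The title of the series places the question in the response of the liver's lining cells to iron outside transferrin, and the macrophages were captured in the same libraries. Livers were digested with collagenase and pronase, and the loaded mix took 5% from the hepatocyte suspension and 95% from that of non-parenchymal cells. With 1 mouse per group no test between mice was possible, and all intervals below are 95% intervals that cover counting error only.

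Kupffer cells sit in the sinusoids and clear bacteria, dying cells, aged red cells and the iron they carry. In mice they are seeded before birth and keep themselves by division, and their identity depends on signals from neighbouring stellate cells, endothelium and hepatocytes. Those signals act through receptors such as CSF1R and through factors such as LXR alpha, the product of Nr1h3. When recruited monocytes refill the niche, they take on genes such as Clec4f early and Timd4 late.

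The RefSeq promoter windows of 4 members are printed because Clec4f, Vsig4 and Cd5l were the members with the most UMIs in Kupffer-like cells of each library and Marco was the member that differed most between libraries. Each runs from 250 bases before to 50 bases after the transcript's start on its own strand of GRCm38.p6. The windows lie at chr6:83656067-83656366 (minus strand, Clec4f), chrX:96293389-96293688 (minus, Vsig4), chr3:87357631-87357930 (plus, Cd5l) and chr1:120504975-120505274 (minus, Marco). Capitals mark matches on either strand to the motifs listed after them.
Clec4f: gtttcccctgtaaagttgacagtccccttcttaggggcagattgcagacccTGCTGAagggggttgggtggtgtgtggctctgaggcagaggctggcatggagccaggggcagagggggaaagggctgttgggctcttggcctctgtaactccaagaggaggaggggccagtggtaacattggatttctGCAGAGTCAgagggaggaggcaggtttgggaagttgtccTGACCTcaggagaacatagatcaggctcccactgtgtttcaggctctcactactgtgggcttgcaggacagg
Vsig4: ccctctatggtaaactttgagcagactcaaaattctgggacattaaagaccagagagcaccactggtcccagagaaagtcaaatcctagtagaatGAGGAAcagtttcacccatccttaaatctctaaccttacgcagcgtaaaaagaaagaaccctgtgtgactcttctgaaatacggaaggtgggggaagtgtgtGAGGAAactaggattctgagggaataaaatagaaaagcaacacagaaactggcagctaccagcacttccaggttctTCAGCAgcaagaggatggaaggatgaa
Cd5l: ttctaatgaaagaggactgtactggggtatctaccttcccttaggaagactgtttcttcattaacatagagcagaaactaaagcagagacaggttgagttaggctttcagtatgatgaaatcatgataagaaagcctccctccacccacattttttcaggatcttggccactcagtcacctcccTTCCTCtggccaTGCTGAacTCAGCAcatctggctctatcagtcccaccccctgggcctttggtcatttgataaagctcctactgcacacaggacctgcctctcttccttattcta
Marco: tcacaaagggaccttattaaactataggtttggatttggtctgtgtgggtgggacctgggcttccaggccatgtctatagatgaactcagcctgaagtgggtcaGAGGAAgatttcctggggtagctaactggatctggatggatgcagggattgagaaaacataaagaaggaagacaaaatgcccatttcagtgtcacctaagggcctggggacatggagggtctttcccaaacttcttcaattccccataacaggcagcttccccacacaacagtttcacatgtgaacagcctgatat
The table held 11 windows for 9 of the 10 members, and they were searched for 7 motifs. GAGGAA, the core bound by PU.1 and SPI-C, was found in the windows of 4 of the 9 genes and in 28.3% of all 32851 windows of the same 300 bases. TGCTGA, a MAF half-site, was found in 6 of the 9 genes, against 19.5% of all windows, and Marco's window was one of the 3 without it. TGACNNNGC, an element of BACH and MAF factors that can overlap TGACTCA (AP-1), was found in 2 genes, against 12.4% of windows. AGGTCA, a half-site of nuclear receptors, was found in 2 genes, against 16.3%, and TGACTCA in 1 gene, against 5.20%. CACGTG (E-box) and GTGGGAA (RBPJ) matched in 0 of the 9 genes, against 7.15% and 6.38% of windows. These matches describe letters in a window and say nothing of binding.

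The libraries held 55478904, 75404660 and 34552858 UMIs in IDD+HTF, IDD+HID and IDD, and 3203, 3538 and 1311 barcodes passed as cells. Each pair of libraries shared 1 cell barcode. Kupffer-like cells numbered 482, 623 and 187, with medians of 11865, 13201 and 4787 UMIs per cell. Their naming markers (C1q genes, Adgre1, Fcna, C6 and others) summed to 22993, 20709 and 21283 CPM (UMIs per 1000000 UMIs of the class). The class held 3 clusters in unequal parts. Cluster 2, with most of the class's UMIs, gave 309, 481 and 80 cells and 85.0%, 93.6% and 72.6% of the UMIs. Cluster 6 (88, 119 and 55 cells, medians of 2234, 2726 and 2704 UMIs) scored higher for erythroid than for Kupffer markers (mean log2 ratio of 1.70 and 1.44) and was kept in the class for its leading genes, which held C1qa, C1qb and C1qc beside the hemoglobin genes Hbb-bs and Hba-a1. Cluster 13 (85, 23 and 52 cells) had no naming marker among its leading genes and was led by Marco, a gene not used in the clustering. Monocyte-like cells numbered 23, 58 and 15, and conventional dendritic-like cells 16, 43 and 15, so their levels rest on few cells.

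Among 11 named cell classes, all 10 genes were at their highest in Kupffer-like cells. Unnamed cells and the cluster with both Kupffer and endothelial markers were not among these classes. In 30 of 30 pairs of member and library the Kupffer-like CPM was the highest of 11 cell classes, and between 83.6% and 98.4% of a member's UMIs in cells lay in this class. With each cell thinned to 1000 UMIs, a Kupffer-like cell held a UMI of on average 5.07, 4.82 and 4.35 of the 10 genes in IDD+HTF, IDD+HID and IDD. A monocyte-like cell held 0.660, 0.557 and 0.593 of them, and a conventional dendritic-like cell 0.140, 0.0866 and 0.00390. T-like cells, which should lack these genes, give the background: at the same depth their highest share was 2.27% (Cd5l in IDD+HTF), with medians of 5213, 6939 and 6017 UMIs per T-like cell. Before thinning, 1.52% and 0.784% of T-like cells in IDD+HTF and IDD+HID held 5 or more of the 10 genes, against 0% in IDD, and the parts of free RNA and doublets in this background were not tested.

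**Figure D1:**
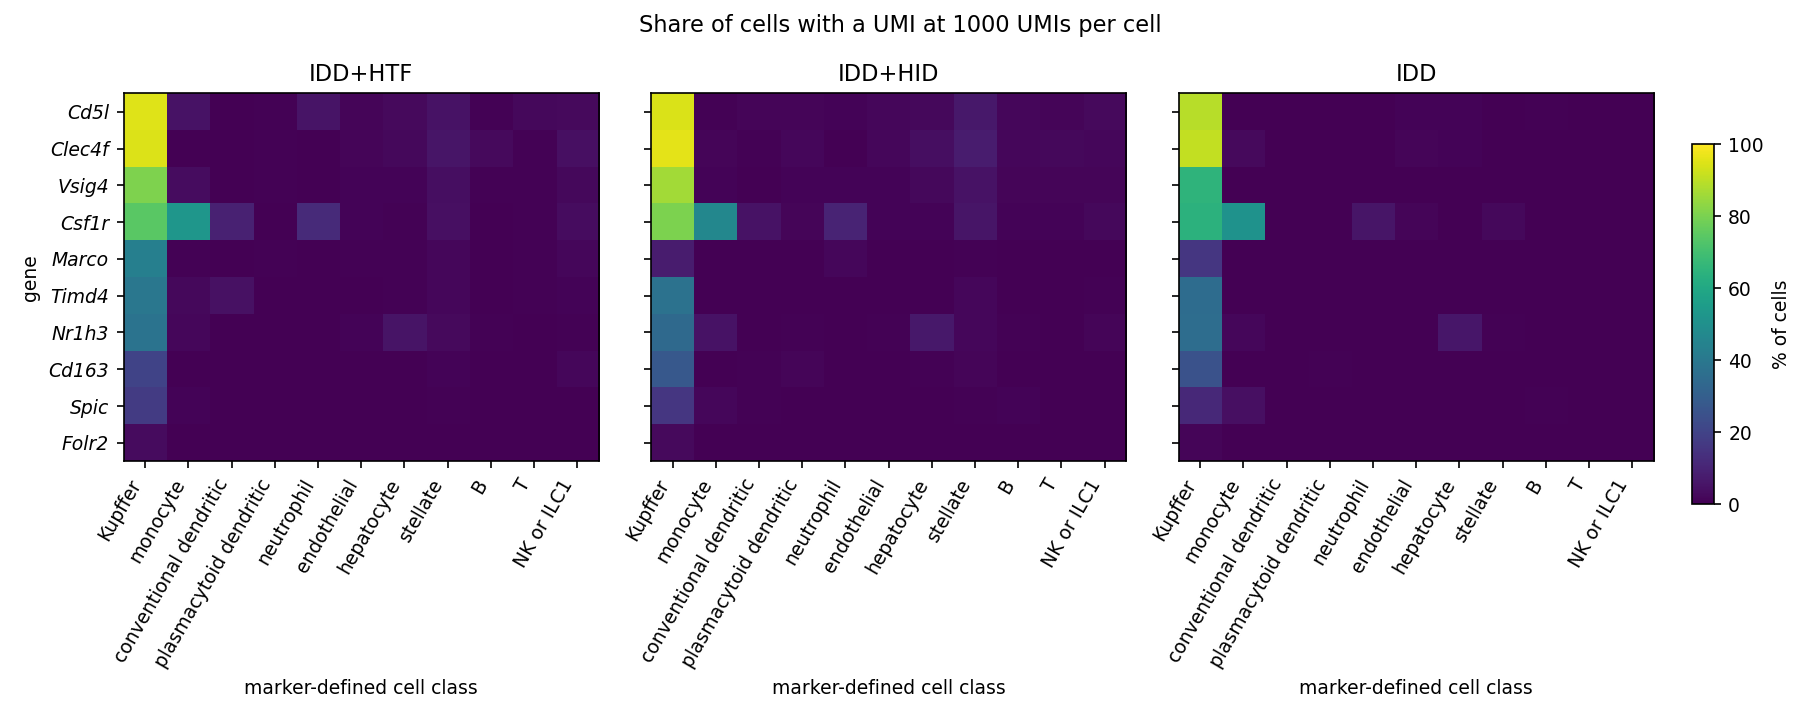
Share of cells with at least 1 UMI of each gene (rows) in 11 marker-defined cell classes (columns), after each cell is thinned to 1000 UMIs, for the IDD+HTF, IDD+HID and IDD libraries. The first column is brightest for Clec4f, Vsig4, Cd5l and Csf1r. Csf1r alone has a bright second column (monocyte-like, 52.5%, 46.4% and 51.0%), and Marco in the first column differs between libraries.

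Counted with bounds for classes at 0 UMIs, 8, 9 and 7 of the 10 members were at least 4-fold higher in Kupffer-like than in monocyte-like cells of IDD+HTF, IDD+HID and IDD. Of all genes measured in these pairs, 5.35%, 7.74% and 6.79% were. Against conventional dendritic-like cells the counts were 9, 10 and 9 of 10, against 8.39%, 11.4% and 13.2% of all measured genes. The genes were listed because they are known from Kupffer cells, so these counts describe how far the class carries them. Both comparison classes were also narrowed by a second clustering, which set cells named neither monocyte nor conventional dendritic aside as unnamed. With the libraries pooled, unnamed parts of 18, 22 and 16 cells held 1056, 55 and 137 Clec4f UMIs. The ratios without this step were not computed. The monocyte-like class was itself a mix. A part led by Prg4, Ifit3 and Serpinb2 gave 8, 17 and 2 cells of IDD+HTF, IDD+HID and IDD. Another, led by Ace and Ear2, gave 9, 21 and 11. With the libraries pooled, the Prg4 part held 37 Nr1h3 UMIs in 9 cells and 31 Vsig4 UMIs in 2. It held 26 Cd5l and 12 Timd4 UMIs in 1 cell each. The part of this mix in the ratios was not tested. Folr2 did not reach 4-fold in IDD+HTF and IDD, where its own level was too low for a count of 0 to say more.

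Clec4f, a C-type lectin that marks Kupffer cells in mice, had 5548, 5638 and 5297 CPM in Kupffer-like cells of IDD+HTF, IDD+HID and IDD. Its thinned shares were 94.9%, 95.8% and 91.0% of cells. In monocyte-like cells it had 0, 8 and 2 UMIs, and in conventional dendritic-like cells 0, 5 and 0. The 3 Kupffer-like levels lay close together over the whole class, and both other classes were at or near 0. In cluster 2 the ratios to IDD were 1.00 (0.972 to 1.03) in IDD+HTF and 0.990 (0.963 to 1.02) in IDD+HID. The levels lay further apart in cluster 6, with ratios of 1.29 (1.17 to 1.42) and 1.52 (1.39 to 1.66). In cluster 13 IDD+HTF stood at 0.986 of IDD (0.916 to 1.06) and IDD+HID at 0.842 (0.739 to 0.958). The ratio to monocyte-like cells was at least 306-fold in IDD+HTF, with 3 counts taken for the 0, 378 in IDD+HID (192 to 877) and 175 in IDD (48.5 to 1447).

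Vsig4, the complement receptor that captures opsonised bacteria from the blood, had 2455 and 2442 CPM in Kupffer-like cells of IDD+HTF and IDD+HID, against 1901 CPM in IDD. Both treated libraries were higher, by 1.29-fold (1.24 to 1.35) in IDD+HTF and by 1.28-fold (1.23 to 1.34) in IDD+HID. In cluster 6 the same ratios were 1.88 (1.58 to 2.24) and 2.72 (2.32 to 3.20). In monocyte-like cells the 30 UMIs of IDD+HTF came from 1 of 23 cells, and IDD+HID and IDD had 5 and 0 UMIs.

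Timd4, the phosphatidylserine receptor for dying cells that marks long-resident Kupffer cells, had 601, 525 and 600 CPM in Kupffer-like cells of IDD+HTF, IDD+HID and IDD. IDD+HTF and IDD were equal within counting error, with a ratio of 1.00 (0.928 to 1.08), and IDD+HID was lower at 0.875 of IDD (0.812 to 0.944). Its thinned shares were 39.6%, 37.7% and 35.3%. Monocyte-like cells had 12 UMIs in 1 cell of IDD+HTF and 0 in the other libraries.

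Cd5l, a secreted protein that binds lipids and supports macrophage survival, had 6326, 4765 and 5568 CPM. IDD+HTF was 1.14-fold above IDD (1.11 to 1.16), while IDD+HID stood at 0.856 of IDD (0.835 to 0.877). The directions of the 2 ratios differ, and neither reached 1.5-fold over the whole class. In cluster 6 the direction of IDD+HID turned, with 1.53-fold above IDD (1.39 to 1.68), while clusters 2 and 13 had 0.808 (0.786 to 0.831) and 0.755 (0.671 to 0.849). Its UMIs in monocyte-like cells were 29, 2 and 0, and in conventional dendritic-like cells 1, 7 and 0.

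Marco, a class A scavenger receptor for bacteria and particles, was the member that differed most between libraries. Its level in Kupffer-like cells was 1330 CPM for IDD+HTF (1301 to 1359) and 142 CPM for IDD+HID (134 to 151), against 326 CPM in IDD (297 to 358). The IDD+HTF library was the highest and IDD+HID the lowest. Their intervals did not overlap, but these cover counting error only and leave out the spread between cells. That spread was large, as the most Marco-rich 10% of Kupffer-like cells held 55.4%, 90.5% and 76.1% of its UMIs in IDD+HTF, IDD+HID and IDD. Against IDD, IDD+HTF was 4.08-fold higher (3.71 to 4.5) and IDD+HID 2.29-fold lower (2.05 to 2.56). The thinned share of cells with a Marco UMI was 43.3% (38.9 to 47.9) for IDD+HTF and 7.54% (5.60 to 9.91) for IDD+HID, against 15.8% in IDD (10.9 to 21.8). Monocyte-like cells held 2, 0 and 0 Marco UMIs and conventional dendritic-like cells 0 in each library.

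**Figure D2:**
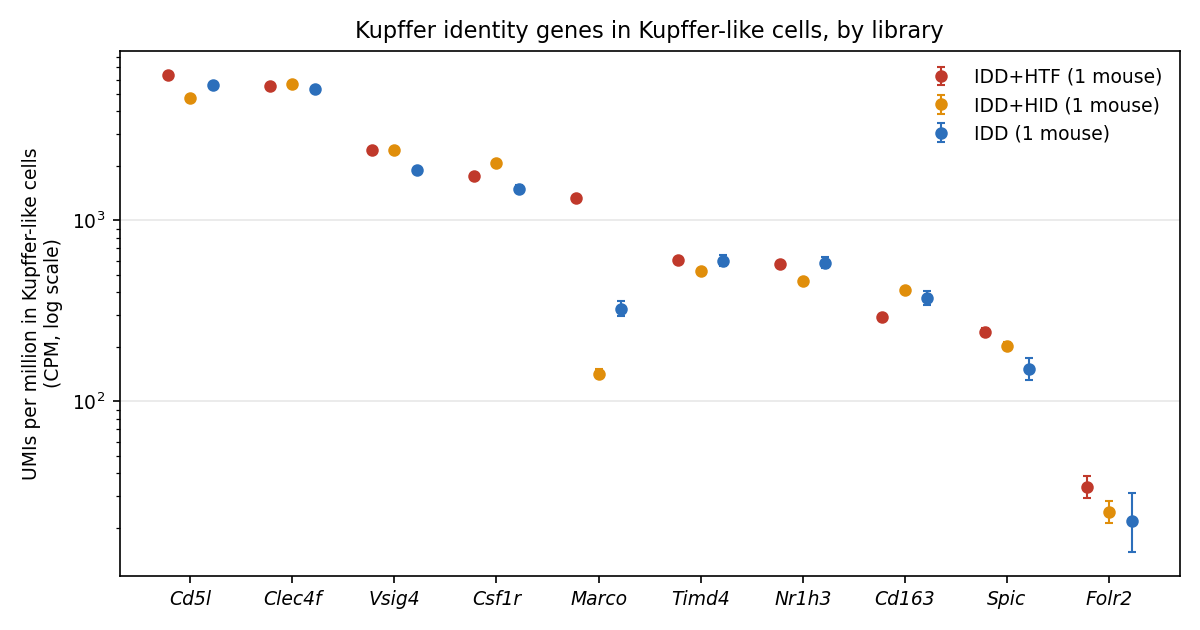
Level of each of the 10 genes in Kupffer-like cells as CPM of the class (log axis), for the IDD+HTF, IDD+HID and IDD libraries, 1 mouse each, with exact Poisson 95% intervals. Most genes have their 3 points close together, while Marco spans 1330, 142 and 326 CPM.

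The Marco difference was read again within each cluster, since the clusters were unequally filled. In cluster 2 the IDD+HTF cells had 1272 CPM of Marco and the IDD+HID cells 143 CPM, against 256 CPM in IDD. These are ratios of 4.97 (4.38 to 5.65) and 0.558 (0.486 to 0.642) to IDD. In cluster 13, where the gene was highest, it had 1765 and 223 CPM in the 2 treated libraries, against 851 CPM in IDD, with ratios of 2.07 (1.76 to 2.45) and 0.262 (0.152 to 0.426). In cluster 6 the IDD+HTF ratio was 11.9 (7.57 to 19.7), but IDD+HID and IDD did not separate at 50 and 20 UMIs, with a ratio of 0.999 (0.584 to 1.77). IDD+HTF was thus above IDD in all 3 clusters, and IDD+HID below IDD in 2 of them.

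A second reading of the same libraries came from droplets with at most 100 UMIs, which hold mostly free RNA and were used in no clustering. Per 100 Clec4f UMIs, free RNA held 24.7 Marco UMIs (21.3 to 28.5) for IDD+HTF and 4.49 (3.43 to 5.78) for IDD+HID, against 7.58 in IDD (5.60 to 10.1). Kupffer-like cells held 24.0, 2.52 and 6.15. The order of the libraries was the same in both, though the intervals of IDD+HID and IDD in free RNA overlapped. In IDD+HID the Marco ratio was higher in free RNA than in Kupffer-like cells. The ratio of Nr1h3 was higher in free RNA in every library, with 19.9, 12.6 and 19.1 UMIs per 100 Clec4f UMIs in free RNA and 10.4, 8.20 and 11.0 in Kupffer-like cells.

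**Figure D3:**
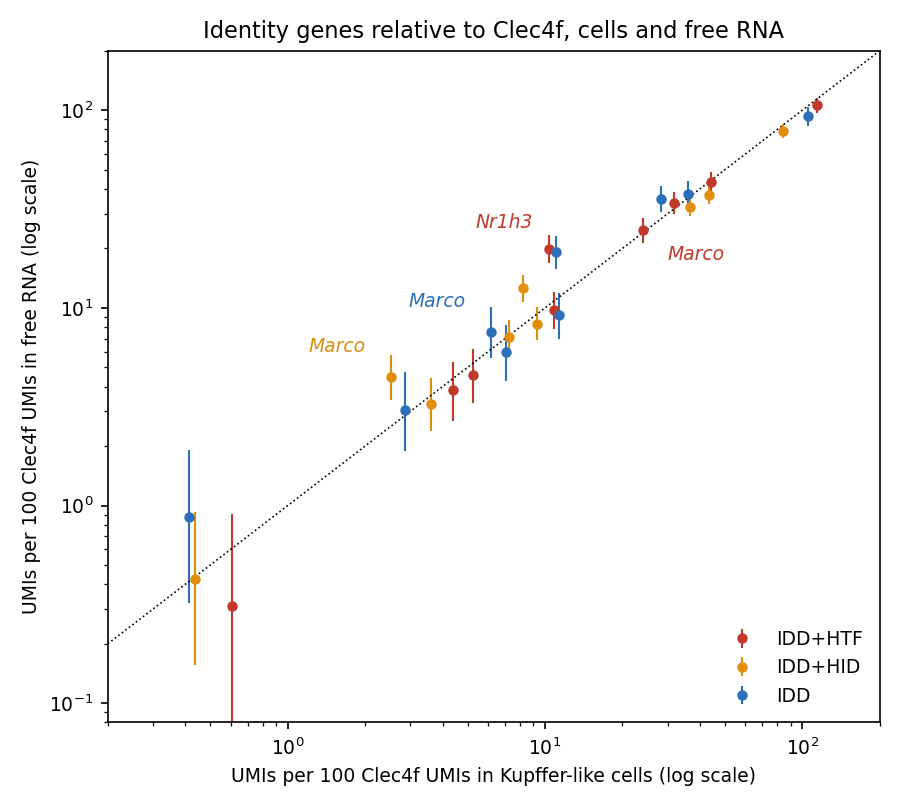
UMIs of 9 genes per 100 Clec4f UMIs in droplets of at most 100 UMIs (vertical, with 95% intervals) against the same ratio in Kupffer-like cells (horizontal), both log axes, coloured by library. Points lie near the dotted line of equality, Marco is labelled at 24.0, 2.52 and 6.15 on the horizontal axis for IDD+HTF, IDD+HID and IDD, and Nr1h3 of IDD+HTF lies above the line.

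Cd163, the receptor that takes up hemoglobin bound to haptoglobin, had 292, 410 and 373 CPM in Kupffer-like cells of IDD+HTF, IDD+HID and IDD. IDD+HTF was 1.28-fold lower than IDD (1.15 to 1.41), and IDD+HID 1.10-fold higher (1.00 to 1.21), which is barely beyond counting error. In monocyte-like cells it had 0 UMIs in all 3 libraries. Cells left without a name held 3.17% and 2.15% of its UMIs in IDD+HTF and IDD+HID, against 7.68% in IDD, the highest such share of the 10 members in IDD. A cluster of 22 such cells (7, 8 and 7 by library), led by Retnla, Ms4a7, Pf4 and Cbr2, had 526 CPM of Cd163 and 1167 CPM of Csf1r but 273 CPM of Clec4f and 19.9 CPM of Marco, over the 3 libraries together. That pooled Cd163 level (431 to 636) was above the 292, 410 and 373 CPM of Kupffer-like cells. Few of the 22 cells carried Cd163 (7 had a UMI), Clec4f (2) or Marco (3), while 19 had a Csf1r UMI.

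Folr2, a folate receptor of tissue macrophages, was sparse, with 203, 199 and 30 UMIs in Kupffer-like cells (33.7, 24.6 and 21.9 CPM). The IDD+HTF ratio to IDD was 1.54 (1.05 to 2.34) and that of IDD+HID 1.13 (0.765 to 1.71). It was under 1.5-fold in IDD+HTF with TMM scaling and in cluster 2 alone, so its place among the counted genes is not firm. Monocyte-like and conventional dendritic-like cells had 0 Folr2 UMIs in every library.

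Spic, the transcription factor that heme induces in the macrophages that recycle red cells, had 243 and 203 CPM in Kupffer-like cells of IDD+HTF and IDD+HID, against 151 CPM in IDD. It was 1.61-fold higher in IDD+HTF (1.39 to 1.87) and 1.34-fold higher in IDD+HID (1.16 to 1.56). Within cluster 2 the ratios were 1.53 (1.30 to 1.81) and 1.27 (1.08 to 1.5). Monocyte-like cells held 3, 12 and 4 Spic UMIs, from 1, 4 and 1 cells. In IDD the ratio of Kupffer-like to monocyte-like cells, 2.50 (0.960 to 9.25), was within counting error of 1.

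Nr1h3, which encodes LXR alpha, the sterol-sensing receptor needed to keep the Kupffer programme, had 578, 462 and 583 CPM in Kupffer-like cells of IDD+HTF, IDD+HID and IDD. IDD+HTF stood at 0.990 of IDD (0.917 to 1.07) and IDD+HID was 1.26-fold lower (1.17 to 1.36). It was also present in hepatocyte-like cells, at 58.2, 83.3 and 62.5 CPM. There it came to 261, 86.5 and 600 UMIs per 100 Clec4f UMIs, far above the 10.4, 8.20 and 11.0 in Kupffer-like cells, so its UMIs in hepatocyte-like cells did not keep the ratio of Kupffer RNA. Monocyte-like cells had 4, 39 and 1 UMIs (24.2, 72.6 and 15.1 CPM). With the libraries pooled, 37 of these lay in 9 cells of the part led by Prg4.

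Csf1r, the receptor for CSF1 and IL-34 on which monocytes and macrophages depend, was the member shared with monocytes. Kupffer-like cells had 1766 and 2070 CPM in IDD+HTF and IDD+HID, against 1498 CPM in IDD, and monocyte-like cells had 713 and 618 CPM, against 696 CPM. The ratio of Kupffer-like to monocyte-like cells was 2.48 (2.07 to 2.99) in IDD+HTF, 3.35 (3.0 to 3.74) in IDD+HID and 2.15 (1.61 to 2.95) in IDD. Conventional dendritic-like cells had 94.7, 43.8 and 4.40 CPM (18, 33 and 1 UMIs), and neutrophil-like cells 135, 114 and 83.4 CPM from 6, 12 and 3 UMIs, so these 2 classes were not separated by counting error in IDD+HTF. In Kupffer-like cells the gene was 1.18-fold above IDD in IDD+HTF (1.12 to 1.24) and 1.38-fold above in IDD+HID (1.32 to 1.45).

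By the rule of at least 1.5-fold, 3 of the 10 members (Marco, Spic and Folr2) were higher in IDD+HTF than in IDD and 0 lower. Of 9592 genes measured in that pair (at least 50 UMIs together), 11.2% were higher and 5.6% lower. For IDD+HID, 0 members were higher and 1 (Marco) lower, against 14% and 7.87% of 10256 measured genes, so that count is near the share of all genes. The median log2 ratio of the members was 0.21 in IDD+HTF and 0.11 in IDD+HID, beside 0.07 and 0.09 over all measured genes. Both comparisons share the IDD library.

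**Figure D4:**
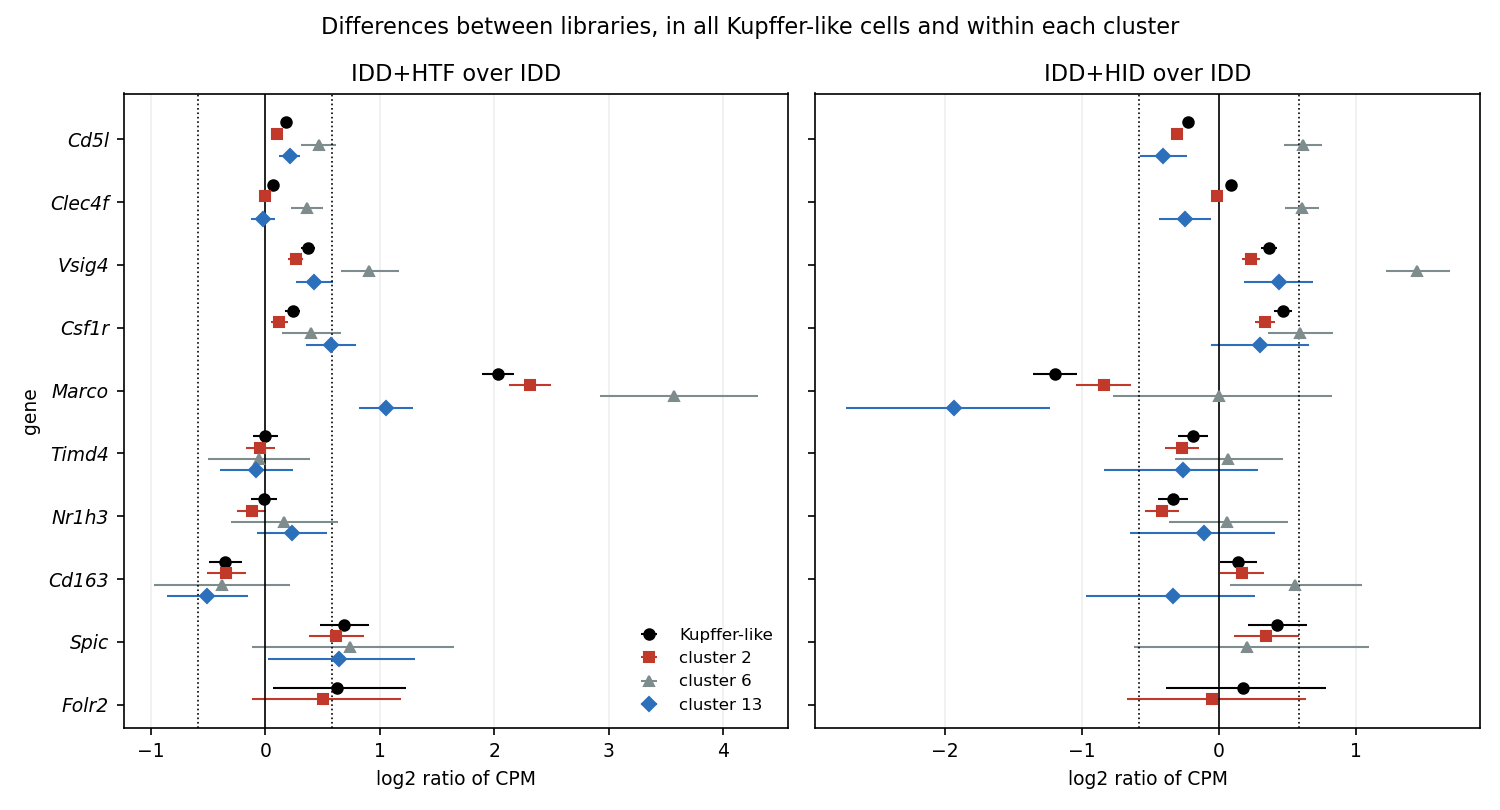
Log2 ratio of CPM to IDD for each gene in IDD+HTF (left) and IDD+HID (right), in all Kupffer-like cells and within clusters 2, 6 and 13, with exact conditional 95% intervals and dotted lines at 1.5-fold. Only pairs with at least 50 UMIs are drawn. Marco lies right of the lines in all 4 sets on the left (log2 of 2.03, 2.31, 3.57 and 1.05) and left of them in 3 of 4 on the right (-1.20, -0.84 and -1.93, with 0.00 in cluster 6).

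Cells of the same library also differed in these genes. In cluster 2 the coefficient of variation left after counting error was 0.31, 0.22 and 0.29 for Csf1r and 0.36, 0.30 and 0.29 for Clec4f in IDD+HTF, IDD+HID and IDD. For Vsig4, Timd4 and Cd5l it lay between 0.33 and 0.46, and for Nr1h3 between 0.47 and 0.51. Cd163 and Spic varied more, from 0.91 to 1.21. With Folr2 left aside as too sparse, Marco varied most, with 1.27 in IDD+HTF and 3.72 in IDD+HID, against 1.76 in IDD. The most Marco-rich 10% of Kupffer-like cells held 55.4% of its UMIs in IDD+HTF and 90.5% in IDD+HID, against 76.1% in IDD. The median Kupffer-like cell had 4.15 Marco UMIs per 10000 UMIs in IDD+HTF and 0 in the other libraries.

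**Figure D5:**
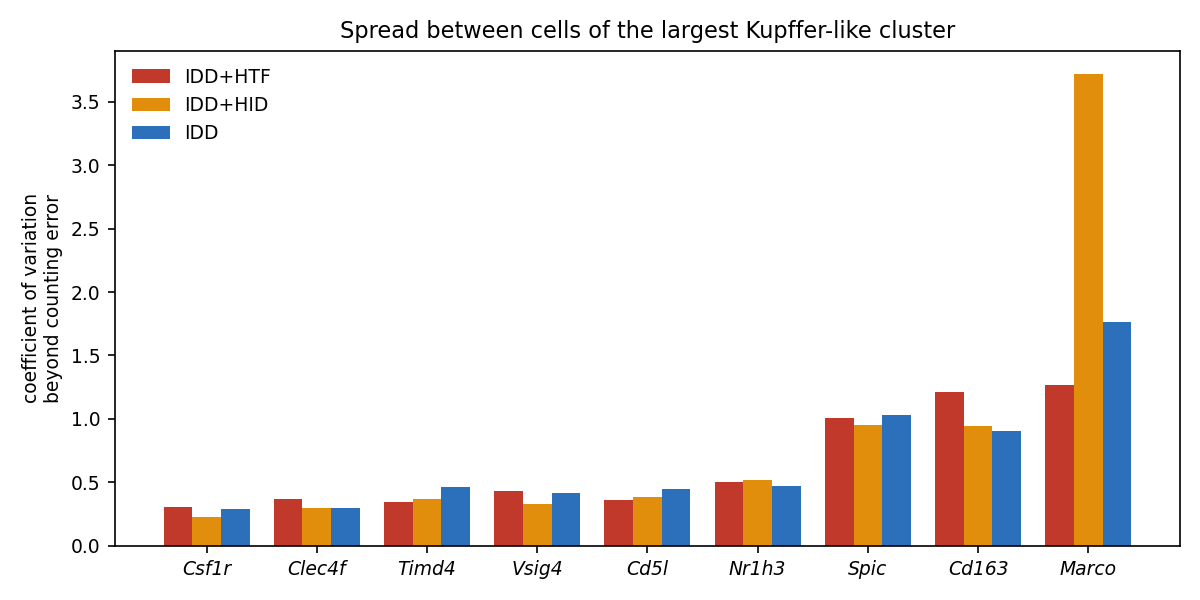
Coefficient of variation beyond counting error between cells of cluster 2 for 9 genes, by library (309, 481 and 80 cells). Csf1r has the shortest bar in each library, Cd163 and Spic stand near 1, and Marco has 1.27, 3.72 and 1.76 in IDD+HTF, IDD+HID and IDD. Folr2 is left out because its counts are too sparse.

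Some members moved together from cell to cell. This is a description across cells of cluster 2 within each library, with expected counts scaled to each cell's own UMI total. The correlation after counting error of Clec4f with Vsig4 was 0.62, 0.46 and 0.64 in IDD+HTF, IDD+HID and IDD. That of Clec4f with Csf1r was 0.46, 0.38 and 0.49, and that of Timd4 with Cd5l 0.45, 0.40 and 0.58. Other pairs were less even across libraries, with 0.31, 0.55 and 0.60 for Vsig4 with Cd5l and 0.10, 0.27 and 0.61 for Clec4f with Cd5l. Marco did not follow Clec4f (-0.32, -0.05 and -0.08). It went with Nr1h3 in IDD+HTF (0.44) and IDD (0.35) but hardly in IDD+HID (0.06).

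Across 7 classes and 3 libraries (21 points of log2 of CPM with 20 added, 18295 genes compared), the 3 genes with the pattern most like each member's were named. For Clec4f they were the complement genes C1qc, C1qb and C1qa (Pearson r of 0.997, 0.994 and 0.994). For Timd4 they were Lilra5, Pcolce2 and Slc11a1 (0.997 each), the last a metal transporter of phagosomes. The points share libraries and depth, and any gene bound to 1 class scores high. For Marco they were Gfra2 (0.991), Fpr2 (0.981) and Gm11698 (0.978). Gfra2, a receptor for neurturin, had 121 and 32.5 CPM in Kupffer-like cells of IDD+HTF and IDD+HID, against 52.5 CPM in IDD, which is the order seen for Marco. Fpr2, a receptor for bacterial and host peptides, had 178 and 77.2 CPM, against 75.9 CPM in IDD, with IDD+HID and IDD close together. Nr1h3 was most like Abcc3, Shtn1 and C6 (0.977, 0.967 and 0.965), and Spic most like Tmem26, Clec4n and Pilrb1 (0.995, 0.994 and 0.994). Csf1r was most like Cd300ld, Fcgr3 and C1qa (0.989, 0.986 and 0.986).

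Genes around these members were read from 7 lists. The counts of each are to be read against all measured genes, of which 11.2% were higher and 5.6% lower in IDD+HTF and 14% higher and 7.87% lower in IDD+HID. Of 19 measured identity factors, 2 were at least 1.5-fold higher in IDD+HTF and 6 in IDD+HID, and 0 lower in either, with median log2 ratios of 0.17 and 0.30. With TMM scaling the 6 fell to 3, as Bach1, Cebpa and Nr1h2 dropped under 1.5-fold, and the 2 of IDD+HTF were 4 in cluster 2 alone. Klf4, a factor of monocytes and macrophages, had 322 and 696 CPM in the treated libraries, against 182 CPM in IDD, and was 1.77-fold (1.55 to 2.03) and 3.83-fold (3.37 to 4.37) higher. Id3, which Kupffer cells need in development, had 1509 CPM in IDD+HID against 920 CPM in IDD, 1.64-fold higher (1.55 to 1.74). Its relative Id1 was 1.78-fold higher in IDD+HID (1.59 to 1.99), and in IDD+HTF 1.47-fold (1.31 to 1.65) over the class but 2.26-fold in cluster 2. Bach1, the heme-sensing repressor, was 1.57-fold higher in IDD+HID (1.27 to 1.96), but 1.49-fold with TMM scaling and 1.44-fold in cluster 2.

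Of 11 measured targets of LXR, the receptor that Nr1h3 encodes, 1 was higher in each treated library and 2 were lower in IDD+HID, so the higher genes were no larger a share than among all measured genes (11.2% and 14%). Mylip, which marks lipoprotein receptors for breakdown, had 241 and 217 CPM in IDD+HTF and IDD+HID, against 123 CPM in IDD, ratios of 1.97 (1.68 to 2.32) and 1.77 (1.51 to 2.08). Scd1, a fatty acid desaturase, was 1.98-fold lower in IDD+HID (1.72 to 2.26), and Scd2 1.60-fold lower (1.22 to 2.07). The median log2 ratios of the list were 0.23 and 0.15, beside 0.07 and 0.09 over all measured genes.

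Of 18 other surface and scavenger genes of Kupffer cells, 5 were higher and 1 lower in IDD+HTF (all genes 11.2% and 5.6%), and 3 higher and 0 lower in IDD+HID (14% and 7.87%). The 3 of IDD+HID are near the share of all genes. Cd14, the lipopolysaccharide co-receptor, had 377 and 400 CPM against 159 CPM in IDD, 2.37-fold (2.06 to 2.74) and 2.52-fold (2.19 to 2.90) higher. Cd209f, a C-type lectin, was 4.88-fold (2.68 to 9.91) and 5.68-fold (3.14 to 11.5) higher, from 236 and 368 UMIs against 11 in IDD. Fcgr4, an antibody receptor, was 1.58-fold lower in IDD+HTF (1.46 to 1.72). Stab1, a scavenger receptor that endothelium also carries, was 1.74-fold higher in IDD+HTF (1.35 to 2.26). Lyve1, an endothelial gene, had 47, 51 and 3 UMIs, with ratios of 3.56 (1.15 to 17.9) and 2.89 (0.934 to 14.5). Endothelial markers in Kupffer-like cells summed to 327, 377 and 264 CPM, and their part in these ratios was not tested.

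Of 13 genes of heme, red cell and iron recycling, 2 were higher and 1 lower in each treated library, near the shares of all genes (11.2% higher and 5.6% lower in IDD+HTF, 14% and 7.87% in IDD+HID). Ftl1, the ferritin light chain, had 9058 CPM in IDD+HID against 5493 CPM in IDD, 1.65-fold higher (1.61 to 1.69). Hmox1, the heme oxygenase that opens the heme ring, had 800 CPM against 1226 CPM, 1.53-fold lower (1.45 to 1.62). Both were under 1.5-fold in cluster 2 alone, at 1.43-fold higher for Ftl1 and 1.38-fold lower for Hmox1. Slc7a11, the cystine importer, was 1.68-fold lower in IDD+HTF, an interval that includes no difference (0.965 to 2.82). Hpx, a plasma protein of hepatocytes, was 3.85-fold (2.33 to 6.83) and 3.25-fold (1.97 to 5.76) higher. Hepatocyte markers in Kupffer-like cells summed to 823, 1042 and 403 CPM, and their part in the Hpx ratio was not tested.

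Of the list of inflammatory and recruited-macrophage genes, 3 of 11 measured genes were higher and 2 lower in IDD+HTF, and 6 of 12 higher and 1 lower in IDD+HID, against 11.2% and 5.6% of all genes in IDD+HTF and 14% and 7.87% in IDD+HID. Cxcl2, a neutrophil chemokine, had 940 CPM in IDD+HID against 112 CPM in IDD, 8.43-fold higher (7.18 to 9.95). In a finer clustering (Leiden resolution 2), a Kupffer cluster led by Cxcl2 and Il1b held 10, 154 and 4 cells of IDD+HTF, IDD+HID and IDD. Its part in the chemokine ratios was not tested. Ccl2 and Ccl3, chemokines for monocytes and other leukocytes, were 3.85-fold (3.17 to 4.72) and 3.14-fold (2.68 to 3.70) higher in IDD+HID, and 1.65-fold (1.35 to 2.04) and 2.36-fold (2.01 to 2.79) in IDD+HTF. Cxcl1 was 3.70-fold higher in IDD+HID (2.53 to 5.62) and 1.64-fold lower in IDD+HTF (1.02 to 2.56). Ccr2, the chemokine receptor of incoming monocytes, had 38 and 42 UMIs in the treated libraries and 44 in IDD, 5.09-fold (3.22 to 8.08) and 6.17-fold (3.95 to 9.65) lower. Of 20 early response and dissociation genes, 8 were higher in IDD+HTF and 15 in IDD+HID, against 11.2% and 14% of all genes, and 0 lower. Fosb, an AP-1 subunit, was 4.18-fold higher in IDD+HID (3.72 to 4.71) and Atf3, a stress factor, 3.44-fold (3.04 to 3.89). Cell handling is known to induce this list, and its part in the differences between libraries was not tested.

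Of 13 listed signals to Kupffer cells, 5 were measured within Kupffer-like cells, where Ccl2 was higher in both treated libraries and Cxcl12 1.80-fold higher in IDD+HID (1.06 to 3.29). Cxcl12 had 14.8, 19.7 and 10.9 CPM there in IDD+HTF, IDD+HID and IDD. Stellate-like cells had 2455, 1997 and 3488 CPM of it, lowest in IDD+HID. The part of stellate RNA in the Kupffer-like ratio was not tested. The ligands were also read in the neighbouring classes. Csf1, the ligand of CSF1R, had 182, 183 and 175 CPM in stellate-like cells of IDD+HTF, IDD+HID and IDD, and 143, 151 and 149 CPM in endothelial-like cells. Il34, its second ligand, had 56.2, 57.5 and 60.3 CPM in stellate-like cells. Dll4, the Notch ligand that induces Kupffer genes in monocytes, had 223 and 133 CPM in endothelial-like cells of IDD+HTF and IDD+HID, against 202 CPM in IDD. The CSF1R ligands thus differed little between libraries in the classes that carried them, while Dll4 was lowest in IDD+HID in endothelial-like cells. In stellate-like cells Dll4 had 80.7, 66.8 and 58.8 CPM, with overlapping intervals. Sinusoidal endothelial markers summed to 9257, 11129 and 3022 CPM in stellate-like cells of IDD+HTF, IDD+HID and IDD. The part of endothelial RNA in their Dll4 level was not tested. At Leiden resolution 2, an endothelial cluster with Dll4 among its leading genes held 157, 136 and 84 cells. Endothelial-like cells numbered 863, 1314 and 385 in all. The part of this mix in the Dll4 levels was not tested.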

How the data were processed

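The deposited files hold UMI counts per barcode and gene, whole numbers with every barcode kept and no normalization by the authors. Per the submitters' processing notes the build was GRCm38 and Seurat 4 was used; for aligner and counter, not given in the sources used here. Symbols came from GENCODE M21, which matched 54673 of the 55421 identifiers, and promoter sequences from RefSeq (GRCm38.p6).

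Cells were barcodes with at least 1000 UMIs, 300 genes and at most 20% mitochondrial UMIs. Scrublet (scanpy 1.11.5, expected doublets 6%) called 0.156%, 0.197% and 1.72% of barcodes in IDD+HTF, IDD+HID and IDD, which were removed. Below 0.5% it has not worked, so doublets remain in the treated libraries, and some may remain in IDD. By markers of other classes, 98 of 482, 150 of 623 and 20 of 187 Kupffer-like cells were possible doublets in IDD+HTF, IDD+HID and IDD. These were left out only in an alternative run. Clustering used 2000 variable genes without the members or listed genes, 30 components and Leiden resolution 1 (igraph 0.11.9). Clusters were named from 23 marker lists by mean log2 ratio (at least 1) and either a lead of 0.5 or more markers among the 10 leading genes than any other list, with thresholds set after the profiles were seen. A cluster with Kupffer and endothelial markers was kept apart. The clusters that scored best as monocyte or conventional dendritic were clustered again at resolution 2. Parts named as neither were left unnamed.

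UMIs were summed per class and library as CPM. Intervals are exact Poisson (CPM), exact conditional binomial (ratios) and Clopper-Pearson (shares, approximate after thinning to an expected 1000 UMIs), all at 95%. Where a class had 0 UMIs, 3 counts gave the bound. Genes with 50 UMIs in a pair counted as measured, and 1.5-fold between libraries or 4-fold between classes was the rule of size, with no test. The named genes were the members, up to 4 higher and 2 lower genes of each list past 1.5-fold, and the 3 genes most like each member. TMM factors came from edgeR 4.0.16. The fold code was tested on simulated data. The members, lists and rules were chosen with earlier results of these data known.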

Additional observations from a re-analysis of the deposited data

How the results depend on the processing

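No paired analysis was possible because each group held 1 mouse, and no library could be left out without ending a comparison. The count of members past 1.5-fold in IDD+HTF over IDD was 3, and 1 under the 2-fold rule (Marco). It was 2 under TMM scaling, median-of-ratios scaling, a limit of 2000 UMIs per cell, a limit of 10% mitochondrial UMIs, removal of possible doublets, and in clusters 2 and 13 alone, Folr2 being the gene lost or not measured. For IDD+HID over IDD the count was 1 in all of these except cluster 6 alone, where it was 4, all higher (Clec4f, Vsig4, Cd5l and Csf1r). Over all alternatives the log2 ratio of Marco lay between 1.05 and 3.57 in IDD+HTF and between -1.93 and 0.00 in IDD+HID, with the extremes in single clusters, and no called gene turned direction beyond that. Spic in IDD+HTF lay between 0.62 and 0.74. TMM put the median log2 ratio of all genes at 0.02 in both comparisons, beside 0.07 and 0.09 without it. The count of class ratios of at least 4-fold (52 of 60) was the same under every alternative run for it. The 30 of 30 highest levels were rerun only with mitochondrial genes, ribosomal RNA and repeats left out of the total, and were the same. Other cells or classes were not tried for that count. No alternative undid the second clustering of the monocyte and dendritic clusters. The cause of the cluster 6 count was not tested; its cells had medians of 2234, 2726 and 2704 UMIs and of 7.81%, 6.25% and 10.9% mitochondrial UMIs in IDD+HTF, IDD+HID and IDD. Of the 7 lists, the higher genes of the identity factors moved by more than 1.5 times under scaling (6 to 3 in IDD+HID). Lower genes went from 1 to 2 under scaling in the heme list and the inflammatory list of IDD+HID. The same held for the other surface genes in IDD+HTF. The added alternatives (single clusters, the mixed cluster, scaling of the lists) were chosen after seeing the data. Levels in monocyte-like and dendritic-like cells of IDD rest on 15 cells each.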

Other observations

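Some cells of other classes carried many of the 10 genes. Before thinning, 5.59% of stellate-like cells in IDD+HTF and 7.63% in IDD+HID held 5 or more of them, against 0% in IDD. Median depths of these cells were 7739, 10298.5 and 4123 UMIs in IDD+HTF, IDD+HID and IDD. The parts of depth, free RNA and doublets in these shares were not tested. Per 100 Clec4f UMIs, stellate-like cells had 9.2 Marco UMIs (6.65 to 12.5) for IDD+HTF and 0.690 (0.142 to 2.03) for IDD+HID. The cells with both Kupffer and endothelial markers, kept out of the Kupffer-like class, numbered 31 and 41 in the treated libraries, against 3 in IDD. In IDD+HTF they held 16.3 Marco UMIs per 100 Clec4f UMIs (14.4 to 18.4) and in IDD+HID 3.29 (2.73 to 3.95), so Marco differed between these libraries there too. Another 18 unnamed cells over the 3 libraries, set aside by the second clustering of the monocyte and dendritic clusters, had 3918 CPM of Clec4f and 1388 CPM of Marco.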
